A study of Homo sapiens with 6 samples.

Results

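DNA replication and G1/S genes are the genes whose products license origins, open and copy the DNA in S phase, supply its nucleotides and histones, and commit the cell to leave G1. A set of 41 such genes was followed in drug-tolerant persisters (DTPs) of a lung cancer line. Its members were all probe sets, controls left out, that the array annotation assigns to exactly 1 gene of the set, which gave 79 of the 54613 probe sets tested and, with 1 probe set taken per gene, 41 of 19775 genes. The other 38 probe sets are further readings of the same genes and are described separately.

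RNA was measured in PC9 (PC-9), a lung cancer line (non-small cell) that depends on a mutated EGFR, on Affymetrix U133 Plus 2.0 arrays, which read transcripts mostly near their 3′ ends. All 6 cultures, 3 parental and 3 DTP, carried a GFP vector. The parental cells received the vehicle DMSO and were taken at 100% confluency on day 3. The DTPs, the cells that survive in erlotinib, an inhibitor of the EGFR kinase, were put into 2 µM of the drug at 80% confluency, kept in it for 9 days and taken on day 10. Other text of the submitters has the vehicle, like the drug, on the cells for 9 days. The sources do not settle this, so drug, time in culture and density cannot be told apart in these groups. Neither can selection of cells that already differed and change within cells, nor fewer cells of a type and less RNA per cell. The study's methods describe its replicates in general as biological and from independent experiments, without naming these arrays. The labels do not say that the cultures were started separately. A p-value here weighs the spread among these samples only, which may in part be technical.

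A cell prepares to replicate in G1, when the origin recognition complex (ORC), CDC6 and CDT1 load the MCM2-7 helicase onto DNA. At the G1/S boundary cyclin E and its kinase, switched on by the phosphatase CDC25A, act together with the kinase CDC7. They turn the loaded helicase into a moving one by recruiting CDC45 and the GINS complex, with MCM10. Primase and the polymerases then copy the strands behind it, held by the clamp PCNA, which the RFC complex loads. Most of these genes are known targets of the E2F transcription factors, which the retinoblastoma proteins hold back in G1, so that in a cell that leaves the cycle they usually go down together.

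Because E2F control is what these genes are known to share, the start sites of 4 of the 5 called members (adjusted p under 0.05 and a fold over 1.5, below) are shown first, all but CCNE2. RefSeq promoter windows on GRCh38.p14, 250 bases before to 50 after each gene's start, were given for 36 of the 41 members. The stretches run from 60 bases before the start through the first 20 of the transcript, 5′ to 3′ on the gene's strand. Capitals mark a match to 1 of the 4 E2F octamers named below. Other forms of E2F site were not searched and would stay in lower case.
CDC6, chr17:40287819-40287898, plus strand: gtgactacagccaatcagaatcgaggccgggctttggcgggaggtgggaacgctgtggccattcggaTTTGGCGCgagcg
CDT1, chr16:88803729-88803808, plus strand: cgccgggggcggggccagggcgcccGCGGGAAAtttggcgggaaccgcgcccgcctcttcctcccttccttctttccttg
GINS1, chr20:25407613-25407692, plus strand: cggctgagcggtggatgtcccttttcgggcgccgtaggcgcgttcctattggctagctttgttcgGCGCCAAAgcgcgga
PRIM1, chr12:56752304-56752383, minus strand: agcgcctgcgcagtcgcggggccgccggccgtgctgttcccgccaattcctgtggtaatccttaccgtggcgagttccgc

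The octamers searched were TTTCCCGC, TTTGGCGC, TTTCGCGC and TTTGCCGC on both strands, and matches may overlap. The match of CDC6, TTTGGCGC on the gene's strand, spans bases 8 to 15 of the transcript. GINS1, which moved the other way in DTPs, holds the same letters on the opposite strand at bases 6 to 13. CDT1 has TTTCCCGC on the opposite strand, from 35 to 28 bases before its start, and PRIM1 has none of these letters in its window. One or more octamers were present in 19 of the 36 member windows (52.8%), against 1090 of 27305 genes of the whole table (3.99%). The share was 40.4% (19 of 47) for other replication genes and 5.41% (2 of 37) for mitosis genes. By direction, 6 of the 8 windows of members with an adjusted p under 0.05 and a higher level held a match, 4 of the 8 of those with a lower level and 9 of the 20 of the rest. A match is a description of the sequence and not a bound site, and a window without one says nothing about the factor.

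Across the whole set most members were not called, and neither were most of all genes, 16966 of 19775. Of the 41 genes, 2 were called higher in DTPs, CCNE2 and GINS1, 3 were called lower, CDC6, CDT1 and PRIM1, and 36 were not called. Over all genes 8.08% were called higher and 6.13% lower by the same limma fit with Benjamini-Hochberg adjustment. Setting ribosomal protein genes or the spike-ins equal between arrays (centring) raises all log2 fold changes by 0.13. The split was then 5 higher and 1 lower, since MCM10, UNG and CDC25A were called and CDC6 and CDT1 were not. Of all 19775 genes, 2185 were then called higher and 836 lower with the ribosomal centring, and 2199 and 833 with the spike-ins. As deposited, the ribosomal mean was 13.94 in parental cells and 13.81 in DTPs, and the spike-in mean ran from 11.16 to 11.53 over the arrays. Which scaling is the better one was not tested. Without the fold minimum, 11 members passed the adjusted p upwards and 10 downwards, against 20.4% and 24.0% of all genes, and 20 did not pass. Called or past the adjusted p, the shares of the members lie near those of all genes, and nothing is read from them about the set as a whole. The log2 fold change of the members ran from -0.72 to 1.83 with a median of 0.02, beside -0.05 for all genes, and 23 members had a positive and 18 a negative sign. Groups did not overlap for 12 members that were higher and 11 that were lower in DTPs, beside 23.9% and 29.8% of all genes.

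**Figure D1:**
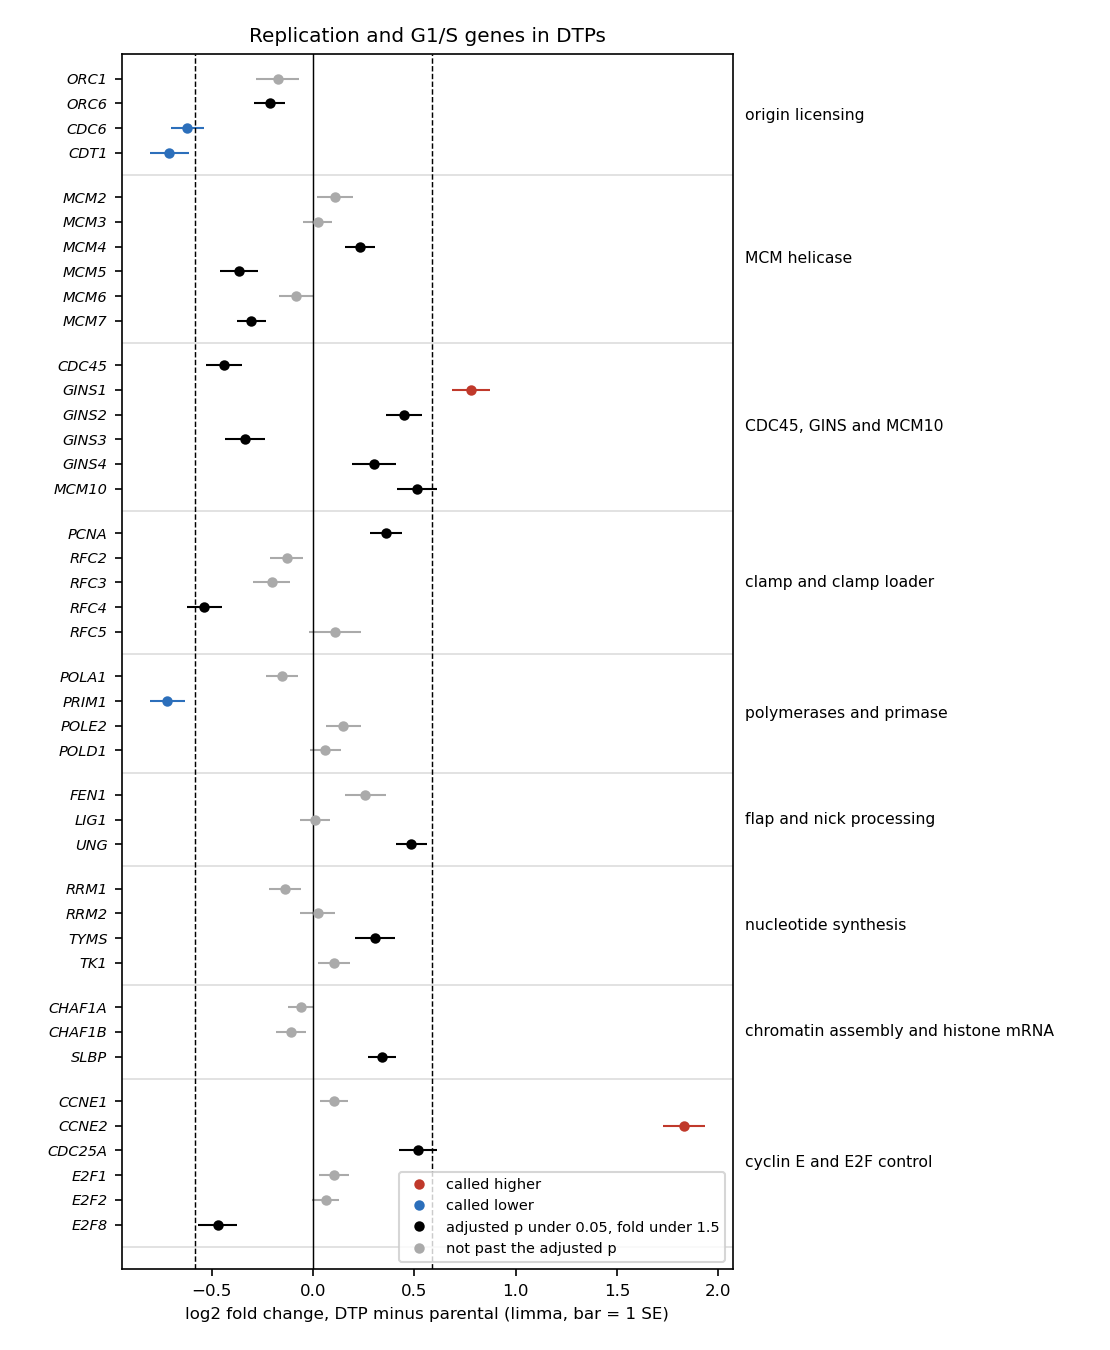
Log2 fold change (DTP minus parental) of the 41 genes by role, each point a gene's value from limma with a bar of 1 SE, and dashed lines at a fold of 1.5. Most points lie between the dashed lines on both sides of 0, CCNE2 stands apart at 1.83, and CDC6, CDT1 and PRIM1 lie past the line on the lower side.

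Origin licensing was the role with the lowest median, -0.42 over 4 genes, of which 2 were called lower and 3 passed the adjusted p. Over all genes 6.13% were called lower and 24.0% passed the adjusted p downwards. CDC6, the ATPase that loads the helicase with ORC, had log2 values of 10.37, 10.35 and 10.33 on parental arrays 1 to 3 and of 9.59, 9.71 and 9.89 on DTP arrays 1 to 3. Every DTP array was below every parental array, and the parental values were almost the same (SD 0.02, n = 3) while the DTP values spread more (SD 0.15, n = 3). It fell by 0.62 on the log2 scale (SE 0.08), 1.54-fold, with an adjusted p of 3.68e-05 (limma), just past the fold minimum. A second probe set of CDC6 had a log2 fold change of -0.70 and was called too. CDT1, which brings the MCM ring to the origin and is normally held in check by geminin, read 9.39, 9.77 and 9.66 on the parental arrays and 8.80, 8.99 and 8.90 on the DTP arrays. The groups stood well apart, and parental replicate 1 was the lowest of its group here, unlike for most members. CDT1 fell by 0.71 (SE 0.10), 1.64-fold, with an adjusted p of 5.45e-05 (limma). Its other probe set, of the _x_at kind that can bind further transcripts, gave -0.26 with an adjusted p of 0.12 over probe sets, so the call rests on 1 of 2 probe sets. The subunits of the origin recognition complex moved less. ORC6, read only by an _x_at probe set, fell by 0.21 (adjusted p 0.0408), and ORC1, at -0.18, did not pass (adjusted p 0.195). The groups of ORC1 overlapped through DTP replicate 3 alone (7.91, against 7.49 and 7.48 on the other DTP arrays), and without that array it passed at -0.32 (adjusted p 0.00295, limma). ORC6 missed the threshold with either centring (-0.086 and -0.083) and without parental replicate 1 (-0.14) or DTP replicate 1 (-0.19) or 2 (-0.20).

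The MCM2-7 ring, whose 6 subunits act as 1 helicase, held no called gene, and the median was -0.03. MCM5 read 10.72, 10.56 and 10.63 on the parental arrays and 10.10, 10.23 and 10.49 on the DTP arrays, where replicate 3 came close to the lowest parental value without reaching it. It fell by 0.37 (SE 0.09), 1.29-fold, with an adjusted p of 0.00648 (limma). MCM7 fell by 0.31 (adjusted p 0.00381) and MCM4 rose by 0.23 (adjusted p 0.0217), while MCM2 at 0.11, MCM3 at 0.02 and MCM6 at -0.08 did not pass. With either centring MCM5 (-0.24 and -0.23) and MCM7 (-0.18 and -0.17) no longer passed, and MCM4 no longer passed without parental replicate 2 (0.21) or 3 (0.23) or DTP replicate 2 (0.20) or 3 (0.20). Where a second probe set was present for MCM5 and MCM7 it had the same sign and passed over probe sets, at -0.32 for each. A second probe set of MCM6 passed as well, at -0.31 (adjusted p 0.0157 over probe sets), but this reading was dim, with means of 5.14 and 4.83 against 11.4 and 11.3 for the one taken. The 5 probe sets of MCM4 ran from -0.005 to 0.38, and 3 of them passed, all upwards.

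All 6 factors that turn the loaded ring into the CDC45-MCM-GINS helicase passed the adjusted p, but in both directions. Of these, 4 were higher and 2 lower in DTPs, beside 20.4% and 24.0% of all genes past the adjusted p. Under some alternatives GINS2, GINS3 or GINS4 did not pass, as given below. GINS1 read 9.55, 9.34 and 9.38 on the parental arrays and 10.08, 10.12 and 10.41 on the DTP arrays. DTP replicate 3 was the highest of all 6 and the groups did not overlap. GINS1 rose by 0.78 (SE 0.09), 1.72-fold, with an adjusted p of 2.08e-05 (limma), and has a single probe set. MCM10, a scaffold that helps to fire the assembled helicase, read 8.81, 8.48 and 8.56 on the parental arrays and 9.02, 9.07 and 9.30 on the DTP arrays, again without overlap. It rose by 0.51 (SE 0.10), 1.43-fold, with an adjusted p of 0.000828. Its other probe sets gave 0.36, which passed over probe sets (adjusted p 0.0174), and 0.13, which did not (adjusted p 0.217).

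CDC45, the partner of GINS in this helicase, went the other way. Its log2 values were 9.42, 9.25 and 9.17 in parental cells and 8.70, 8.84 and 8.98 in DTPs, all DTP values below all parental ones. CDC45 fell by 0.44 (SE 0.09), 1.36-fold, with an adjusted p of 0.00124. The subunits of GINS also differed in sign, since GINS3 fell by 0.34 (adjusted p 0.0134) and GINS4 rose by 0.30 (adjusted p 0.0367). Both were close to the threshold, since without DTP replicate 3 GINS4 was at 0.17 (adjusted p 0.127, limma) and GINS3 did not pass with either centring, at -0.21 in each. GINS4 also missed the threshold without parental replicate 2 or 3, and GINS3 without parental replicate 1 or DTP replicate 1 or 2. All 4 probe sets of GINS4 rose and 3 passed over probe sets, and the mean of all 4 was 0.44 (adjusted p 0.00133, limma). The one taken for the gene missed the threshold over probe sets (adjusted p 0.0512, limma). Among those that passed were dim readings with parental means of 6.21, which rose by 0.86, and 5.16. The second probe set of GINS3 fell by 0.26 and did not pass (adjusted p 0.114 over probe sets). The levels of different probe sets cannot be compared with each other, so these values do not give the make-up of the complex.

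GINS2 was the member whose own probe sets passed in opposite directions. The probe set taken for the gene read 9.26, 9.12 and 9.17 in parental cells and 9.50, 9.56 and 9.84 in DTPs, with no overlap. By this probe set GINS2 rose by 0.45 (SE 0.09), 1.36-fold, with an adjusted p of 0.00125 (limma). Another probe set of the gene fell by 0.32 (adjusted p 0.00429 over probe sets), a further one gave -0.04 without passing, and the mean of all 3 was 0.03. By that mean GINS2 did not pass (adjusted p 0.701, limma). The lower one was dim, at means of 5.91 and 5.58 in parental cells and DTPs, under the median of 7.29 over all probe sets, while the one taken stood at 9.18 and 9.63.

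**Figure D2:**
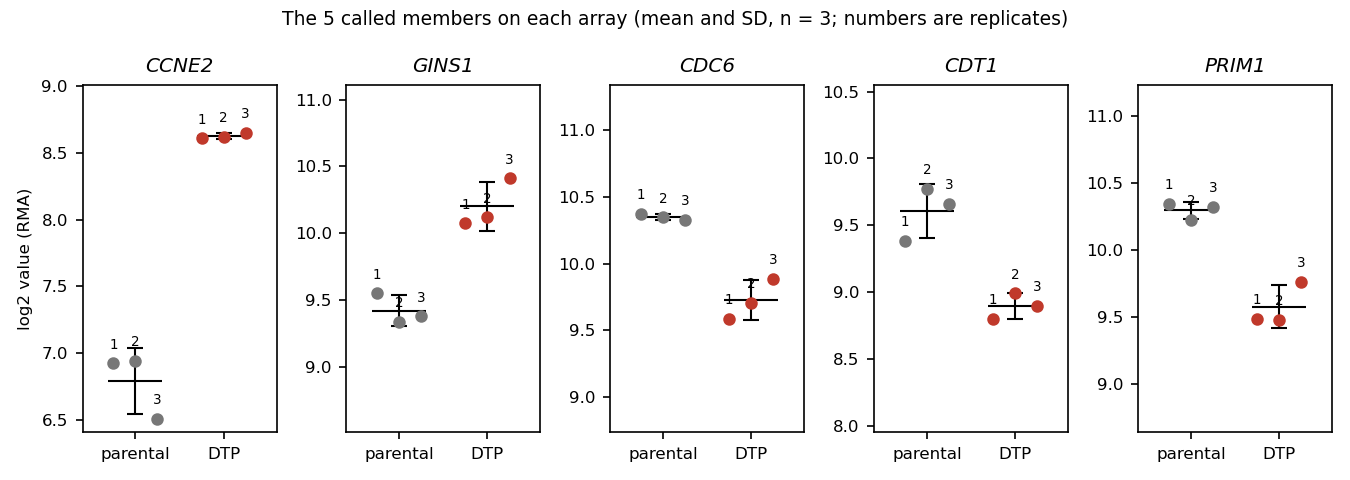
Log2 values of the 5 called genes on each array, parental in grey and DTP in red, with numbers for the replicates and bars for the mean and SD of 3 arrays; each vertical axis spans the same number of log2 units. For each gene the groups stand apart, and the DTP values of CCNE2 lie close together (SD 0.02).

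At the sliding clamp, PCNA, the ring that holds polymerases on DNA, rose by 0.36 (SE 0.08), 1.28-fold, with an adjusted p of 0.00225 (limma). Its loader showed no such rise. RFC4 read 11.61, 11.45 and 11.62 on the parental arrays and 10.87, 11.01 and 11.19 on the DTP arrays, and all 3 DTP values were lower. RFC4 fell by 0.54 (SE 0.09), 1.45-fold, with an adjusted p of 0.000247, short of the fold minimum. RFC2 at -0.13 and RFC3 at -0.20 did not pass, but without DTP replicate 3 both did, at -0.20 (adjusted p 0.0468) and -0.30 (adjusted p 0.0101, limma). Of the other probe sets of RFC3, 1 fell by 0.21 and passed over probe sets (adjusted p 0.0473), and 1 at -0.12 did not. By the mean of its probe sets RFC3 passed at -0.18 (adjusted p 0.0447, limma). RFC5 had overlapping groups and 0.11 by the probe set taken, but -0.28 and -0.25 by its other 2, of which the first passed over probe sets (adjusted p 0.0376).

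PRIM1, the catalytic subunit of the primase that starts each new strand with RNA, had the lowest log2 fold change of all members. Its values were 10.34, 10.22 and 10.32 in parental cells and 9.49, 9.48 and 9.76 in DTPs, with DTP replicate 3 closest to the parental arrays and no overlap. PRIM1 fell by 0.72 (SE 0.08), 1.65-fold, with an adjusted p of 1.61e-05 (limma). The polymerase subunits measured beside it did not pass: POLA1, the catalytic subunit of the polymerase that primase works with, at -0.15, POLE2 of the leading-strand polymerase at 0.15 and POLD1 of the lagging-strand polymerase at 0.06. Without DTP replicate 3 POLA1 passed at -0.22.

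UNG, the glycosylase that removes uracil from DNA, was grouped here with the genes of flap and nick processing. It read 10.52, 10.39 and 10.32 in parental cells and 10.80, 10.90 and 10.98 in DTPs. The DTP values were higher on every array. UNG rose by 0.48 (SE 0.08), 1.40-fold, with an adjusted p of 0.000203 (limma). FEN1, the nuclease that trims the flaps of Okazaki fragments, had a log2 fold change of 0.26 and missed the threshold (adjusted p 0.0551). It passed without DTP replicate 1 (0.33) or parental replicate 1 (0.34) and with either centring (0.39 in each). LIG1, the ligase that seals these fragments, was at 0.01.

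Of the genes for nucleotide supply only TYMS, which makes thymidylate, passed the adjusted p. It read 10.86, 10.57 and 10.71 in parental cells and 10.87, 10.96 and 11.22 in DTPs. DTP replicate 1 was only just above parental replicate 1, the highest of the parental arrays. TYMS rose by 0.31 (SE 0.10), 1.24-fold, with an adjusted p of 0.024 (limma). It did not pass without DTP replicate 3, at 0.20 (adjusted p 0.105), or without parental replicate 2, at 0.23. Both ribonucleotide reductase subunits, RRM1 at -0.14 and RRM2 at 0.02, and the salvage kinase TK1 at 0.10 did not pass. RRM1 passed without DTP replicate 3, at -0.21 (adjusted p 0.0314, limma).

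SLBP, the protein that binds the stem-loop of histone mRNA and is made in S phase, read 10.94, 10.81 and 10.84 in parental cells and 11.18, 11.18 and 11.26 in DTPs, with no overlap. SLBP rose by 0.34 (SE 0.07), 1.27-fold, with an adjusted p of 0.00116 (limma). The large subunits of the CAF-1 histone chaperone, CHAF1A at -0.06 and CHAF1B at -0.11, did not pass.

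The highest fold change was that of CCNE2, which encodes cyclin E2, 1 of the 2 cyclins that drive entry into S phase. It read 6.93, 6.94 and 6.51 on the parental arrays and 8.61, 8.62 and 8.65 on the DTP arrays. In parental cells it stayed under 7.29, the median over all probe sets, on each array, and in DTPs above it. Parental replicate 3 was the lowest array and the DTP arrays were nearly equal (SD 0.02, n = 3). CCNE2 rose by 1.83 (SE 0.10), 3.56-fold, with an adjusted p of 1.72e-08 (limma), and since RMA compresses dim signals the fold may understate the change. Its second probe set rose by 1.38 (adjusted p 1.2e-07 over probe sets). The paralog CCNE1, cyclin E1, had a log2 fold change of 0.10 and an adjusted p of 0.249. With the ribosomal centring CCNE1 passed, at 0.23, and with the spike-ins, also at 0.23, it did not.

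CDC25A, the phosphatase that removes the inhibitory phosphates from the cyclin E kinase, read 8.24, 8.03 and 7.92 in parental cells and 8.64, 8.42 and 8.67 in DTPs. It rose by 0.52 (SE 0.09), 1.43-fold, with an adjusted p of 0.000619 (limma) and no overlap. Its other probe sets had log2 fold changes of 0.91, which was called, and 0.18, which did not pass. Of the E2F factors, E2F8, an atypical member that represses E2F targets late in S phase, read 9.31, 9.01 and 9.08 in parental cells and 8.49, 8.77 and 8.73 in DTPs. The highest DTP value stayed below the lowest parental one, and E2F8 fell by 0.47 (SE 0.10), 1.39-fold, with an adjusted p of 0.00142. The activators E2F1 at 0.10 and E2F2 at 0.06 did not pass. Both passed with the ribosomal centring, at 0.23 and 0.19, but not with the spike-ins.

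Counted over the 79 probe sets, 5 were called higher and 4 lower, against 7.56% and 4.93% of all probe sets. The higher ones were both of CCNE2, the only one of GINS1 and 1 each of GINS4 (0.86) and CDC25A (0.91), the last pair by probe sets not taken for the gene. Both of these were dim, with parental means of 6.21 for GINS4 and 6.08 for CDC25A and DTP means still below 7.29, and neither was tested once dim probe sets were left out, when 3 probe sets were called higher. The lower ones were both of CDC6 and 1 each of CDT1 and PRIM1.

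**Figure D3:**
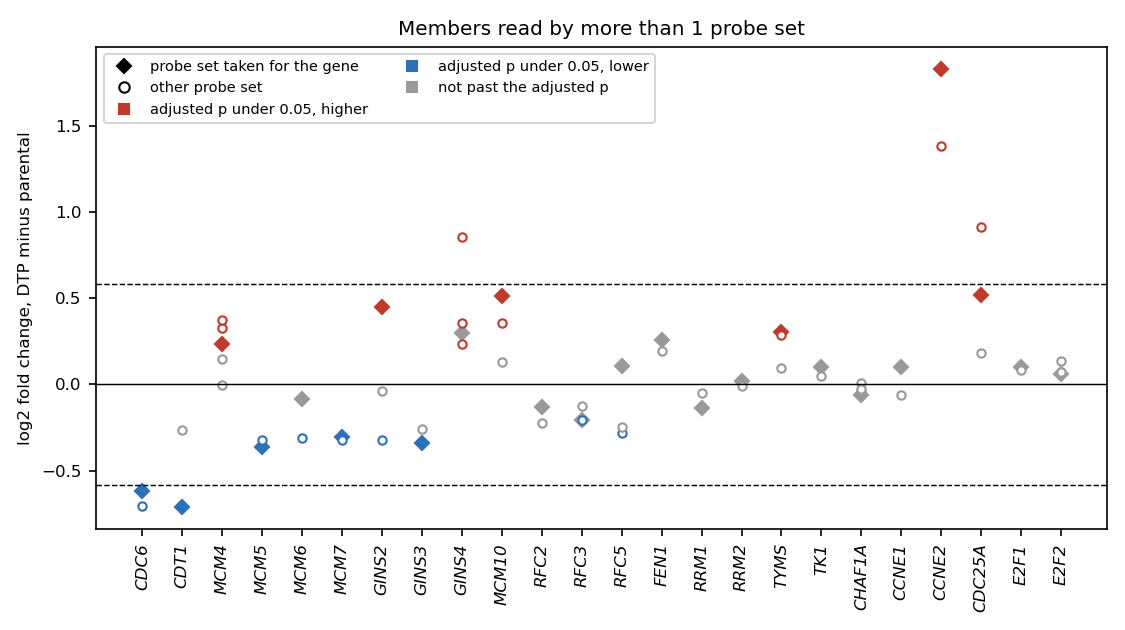
Log2 fold change (DTP minus parental) of each probe set for the members with more than 1, diamonds for the probe set taken for the gene and circles for the others; red and blue mark an adjusted p under 0.05 over probe sets, higher and lower, grey those that did not pass, and dashed lines a fold of 1.5. GINS2 has a red and a blue mark, and the probe sets of GINS4 spread from 0.23 to 0.86.

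Array by array, most members were high on the same array of their group. Parental replicate 1 was the highest of the 3 parental arrays for 35 of the 41 members (85.4%) and for 33.6% of all genes. DTP replicate 3 was the highest of the DTP arrays for 34 members (82.9%) and for 41.3% of all genes, and DTP replicate 1 the lowest for 30 members (73.2%) and for 35.4% of all genes. The other cell cycle lists shared this order, with parental replicate 1 highest for 68.4% of other replication genes and 70.5% of mitosis genes, and DTP replicate 3 for 86.0% and 90.9%. The mean of the members relative to their parental mean was -0.05 in DTP replicate 1, -0.004 in replicate 2 and 0.16 in replicate 3. Of the members, 18 lay below the range of the parental arrays in DTP replicate 1, 18 in replicate 2 and 12 in replicate 3, while 15, 16 and 20 lay above it. Of all 19775 genes, 8320, 8427 and 9463 lay below that range on the same arrays, and 6706, 6635 and 6299 above it. This order and these counts were read from the same values as the comparison, members share their arrays, and what the arrays differ in was not tested.

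**Figure D4:**
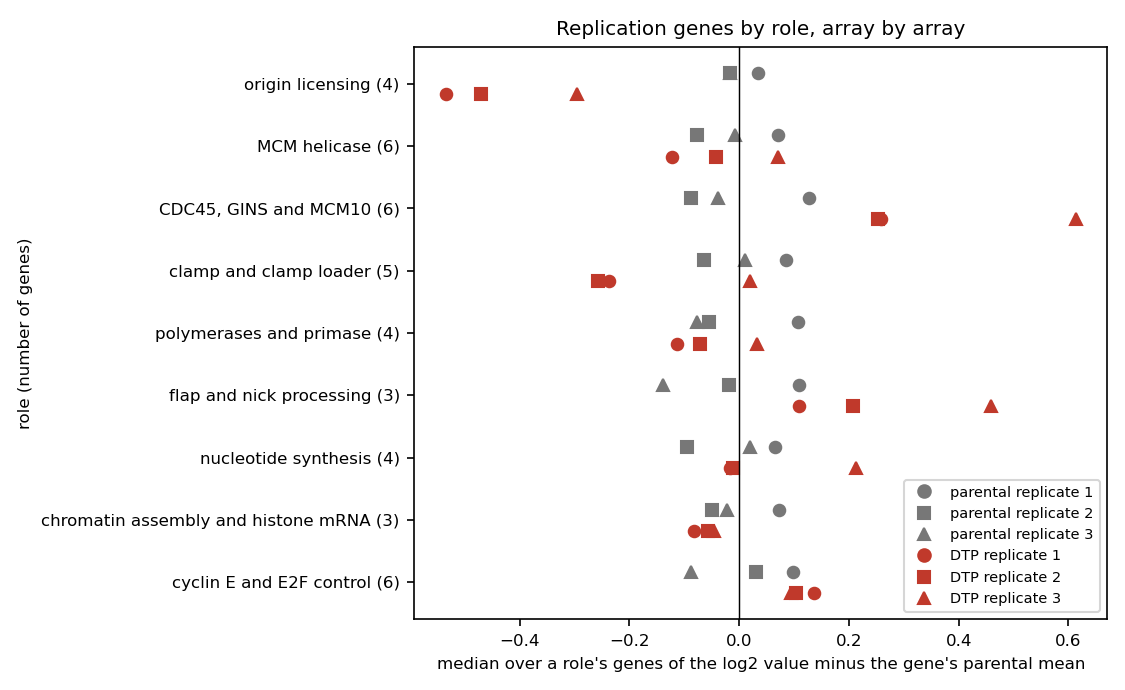
Median over the genes of each role of the log2 value minus the gene's parental mean, for each of the 6 arrays (grey parental, red DTP, a marker shape per replicate; the number of genes in brackets). Origin licensing lies below 0 on every DTP array (-0.53, -0.47 and -0.30), the CDC45, GINS and MCM10 group lies above it (0.26, 0.25 and 0.61), and DTP replicate 3 is the rightmost DTP array in every role except cyclin E and E2F control.

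Role by role, DTP replicate 3 mostly had the highest median of its group. For the clamp and its loader the role medians were -0.24, -0.26 and 0.02 in DTP replicates 1 to 3, for nucleotide synthesis -0.02, -0.01 and 0.21, and for flap and nick processing 0.11, 0.21 and 0.46. In cyclin E and E2F control they were 0.14, 0.10 and 0.09. With both parental replicate 1 and DTP replicate 3 left out, a setting chosen after the data were seen, 2 members were called higher and 4 lower, the 5 above and RFC4 at -0.59. The share of all genes called in this setting is not given here.

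The other genes of the replication pathway, 57 measured of 58 listed, were not tested against the members. Of these 2 were called higher, 4 lower and 51 not at all, 12 passed the adjusted p upwards and 18 downwards, beside the 20.4% and 24.0% of all genes, and the median was 0.01. Under either centring 5 of them were called higher and 3 lower. Of all 19775 genes, 2185 were called higher and 836 lower with the ribosomal centring, and 2199 and 833 with the spike-ins. SKP2, the F-box protein that marks CDKN1B for destruction, read 8.23, 7.96 and 7.93 in parental cells and 8.90, 9.08 and 9.10 in DTPs and rose 1.98-fold. CDK2, the kinase partner of cyclin E, rose 1.51-fold, close to the fold minimum. The 4 lower ones were ASF1A, a histone chaperone (2.06-fold), E2F5, a repressor E2F (1.86-fold), DBF4, the activator of the kinase CDC7 that fires origins (1.66-fold), and ORC5, another subunit of the origin recognition complex (1.61-fold). With ORC5 the origin licensing genes outside the set also had a negative median, -0.29 over 6 genes, of which 3 passed downwards.

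Genes of mitosis, which act later in the same cycle, gave another count. Of 44 measured, 22 were called lower in limma and 0 higher, beside 6.13% and 8.08% of all genes. The adjusted p was passed downwards by 36 and upwards by 0, beside 24.0% and 20.4% of all genes. The median of these mitosis genes was -0.60. On DTP replicate 3 their mean relative to parental cells was -0.40, on the other DTP arrays -0.66 and -0.63, and this array was the highest DTP array for 40 of the 44. No test of the members against the mitosis genes was made. Among the inhibitors of G1/S, CDKN2B, which blocks the cyclin D kinases, was called higher at 0.94, the cyclin E kinase inhibitors CDKN1A and CDKN1B passed at 0.38 and at -0.45, RBL2, a relative of RB1, passed at 0.34, and RB1, the retinoblastoma gene, was at -0.01 and did not pass.

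Arrays of the same group correlated at 0.997 to 0.998 over probe sets and arrays of different groups at 0.970 to 0.975. Of the epithelial markers EPCAM stood at 13.8 in parental cells and 13.6 in DTPs and NKX2-1, a lung marker, was dim at 5.56 and 5.71. KRT7 was called higher (0.97), KRT8, KRT19 and MUC1 passed upwards below the fold minimum, and EPCAM and SFTPB passed downwards. Over the 10 epithelial markers the mean ran from 11.01 to 11.03 on the parental arrays and from 11.18 to 11.19 on the DTP arrays. For other cell types the means were 6.67 to 6.71 and 6.68 to 6.85 for 4 of 6 leukocyte markers (PTPRC 5.36 and 5.32, with CD14 dim but past the adjusted p at 0.34), 6.72 to 6.78 and 6.66 to 6.80 for 6 fibroblast markers, and 7.81 to 7.90 and 7.54 to 7.70 for 4 endothelial markers, of which PECAM1 was called lower at -0.69. The difference between 3′ and 5′ probe sets, a sign of RNA quality, shifted by -0.02 for GAPDH and -0.11 for ACTB, each with an exact permutation p of 0.1, the smallest that 3 against 3 arrays allow. The part of these differences in the members' values was not tested.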

How the data were processed

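RNA of 3 parental and 3 DTP cultures of PC9 was hybridised to 1 array each. As deposited, the authors' values are log2 summaries of probe sets, made per the labels by RMA with affy and, per the study's methods, quantile normalized between arrays. Software versions were not given in the sources used here, and RMA makes no detection call, and quantile normalization hides a change of total mRNA per cell. The number of arrays, 3 a group, limits the precision.

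Of 54675 probe sets, 62 were controls. The platform's gene table, whose symbols can be old, gave 1 symbol to 41091 of the others, several to 1801 and none to 11721. Per gene the brightest probe set by its mean over the 6 arrays was taken among those without _x_at, otherwise an _x_at one. Groups were compared with limma 3.58.1 in R 4.3.3 (lmFit, eBayes, two-sided, no covariate, Benjamini-Hochberg), over all genes and over all probe sets. A call needs a fold over 1.5 beside an adjusted p under 0.05, as in the study's methods. The fit was tested on simulated data.

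The members and the other gene lists were chosen with earlier results of these data known. Values on each array were given for called members, members past the adjusted p with a fold over 1.3, the member with the largest change in each role and a member with opposing probe sets. Promoter sequences are RefSeq's on GRCh38.p14, and the arrays' own build was not needed. Alternatives were other scalings, a filter on dim probe sets, other variance models and the methods' t-test, other probe set rules, a 2-fold minimum, a replicate block and each array left out.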

Additional observations from a re-analysis of the deposited data

How the results depend on the processing

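Calls of CCNE2 held under all 17 alternatives tried, those of GINS1 and PRIM1 under 16, of CDC6 under 13 and of CDT1 under 12. Centring the arrays on ribosomal protein genes or the spike-ins, which shifts the median of all genes by 0.13, gave under each 5 members called higher and 1 lower, 8 and 1 probe sets, 5 other replication genes called higher, 6 members past the adjusted p downwards, 18 upwards with the ribosomal centring, and a median of 0.15. Since the shift is the same for every gene, MCM10, UNG and CDC25A joined the higher calls, CDC6 (-0.49) and CDT1 (-0.58) left the lower ones, and signs turned for MCM6 (0.044 and 0.047), CHAF1A (0.068 and 0.070), CHAF1B (0.020 and 0.022) and, with spike-ins, RFC2 (0.0022). Of all 19775 genes, 2185 and 2199 were then called higher and 836 and 833 lower. Higher calls were 72.3% and 72.5% of all calls, against 56.9% in the main fit. With the ribosomal centring 7 members gained the adjusted p threshold, all upwards: MCM2, POLE2, FEN1, TK1, CCNE1, E2F1 and E2F2. With the spike-ins FEN1 alone gained it. Under each centring ORC6, MCM5, MCM7 and GINS3 lost it. Cyclic loess moved the median to 0.070. FEN1 also gained the threshold with cyclic loess, without dim probe sets and with an intensity trend and robust variances.

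At a 2-fold minimum 1 member was higher and 0 lower, 2 and 0 probe sets, and 0 and 1 other replication genes. Without dim probe sets 3 probe sets were called higher. The methods' t-test left 6 members past the adjusted p downwards. In all 7 members no longer passed with it: ORC6, MCM4, MCM5, GINS3, GINS4, TYMS and E2F8 (adjusted p 0.0568). CDT1 lost its call with the mean of its probe sets (-0.49) or the brightest (-0.26, adjusted p 0.0977 in limma), RFC5 turned to -0.14 with the mean, and CHAF1A to 0.0072 with the brightest. The shares of all genes in these settings are not given here, and nothing is read from the counts about the set.

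With each array left out in turn the members called ran from 2 to 4 higher, the 4 without parental replicate 1, when MCM10 and CDC25A joined (CDC25A also without DTP replicate 2, at 0.60), and from 2 to 4 lower. CDC6 fell short without DTP replicate 1 (-0.55), and RFC4 was called without parental replicate 2 (-0.59) or DTP replicate 3 (-0.62). Members past the adjusted p ran from 8 to 12 upwards and 8 to 15 downwards, the 15 without DTP replicate 3, when 5 gained and 3 lost the threshold, and other replication genes called higher from 1 to 3. Ranges that cross 0 were -0.019 to 0.071 for MCM3, -0.058 to 0.073 for RRM2, -0.059 to 0.050 for LIG1 and -0.015 to 0.29 for RFC5. Without both parental replicate 1 and DTP replicate 3, chosen after seeing the data, RFC5 was at -0.074 and RRM2 at -0.020. The cause of these moves was not tested. For these counts too the shares of all genes are not given here, and nothing is read from them about the set.

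Same-numbered samples did not deviate together (correlations of -0.13, 0.08 and -0.05). The fit with a replicate block gave the same 2 higher and 3 lower calls, and 11 and 9 members past the adjusted p.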
